A study of Homo sapiens with 6 samples.

Results

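The keratins of simple epithelia were examined in HSC-4 cells, a cell line long established from an oral squamous cell carcinoma (OSCC). The members were *KRT7*, *KRT8*, *KRT18*, *KRT19* and *KRT80*, taken by symbol, and they make up 5 of the 58884 genes in the count tables. All 5 passed the filter on low counts. RNA was collected from 3 cultures labelled control and from 3 cultures given 50 µM DAPT, for 24 h. DAPT inhibits γ-secretase, the protease that cuts Notch receptors and so frees the intracellular domain that acts on target genes. The study's methods give 0.5% DMSO as the vehicle of the controls, while the count columns of these cultures carry the letters GM, which no label explains, and the series text speaks of normal growth medium. If the controls had no DMSO, an effect of the vehicle and one of DAPT cannot be told apart. All cultures are of the same single line, and nothing in the labels says how separate the 3 cultures of a group were. The p-values thus measure the spread between these samples, which may be technical.

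Keratins are the intermediate filament proteins of epithelial cells. A filament needs a type I and a type II keratin in equal amounts, so the genes work in pairs. *KRT8* (type II) and *KRT18* (type I) form the basic pair of single-layered epithelia such as gut, liver and glands. *KRT7* (type II) and *KRT19* (type I) are typical of ducts and glands, and *KRT19* encodes the smallest keratin, which lacks most of the tail. *KRT80* is a type II keratin of differentiating epithelial cells. Stratified squamous epithelium is built mainly on *KRT5* and *KRT14* instead, and simple keratins often appear in carcinomas that arise from it.

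Of the 5 genes, 4 lie in the type II keratin cluster on chromosome 12 of GRCh38 and *KRT19* in the type I cluster on chromosome 17. *KRT80* (52168996 to 52192014, minus strand) and *KRT7* (52232520 to 52252186, plus strand) are adjacent members whose starts are 40.5 kb apart. As annotated, *KRT8* (52897187 to 52949954, minus strand) and *KRT18* (52948871 to 52952906, plus strand) start 1.08 kb apart on opposite strands. A start is here the outermost exon end over all transcripts of a gene. *KRT8* has 6881 exonic bases against 1784 in its canonical transcript, which may start elsewhere, so 1.08 kb need not separate the main transcripts. *KRT18* is the type I gene that sits in the type II cluster. *KRT19* spans 41523617 to 41528308 on the minus strand. The overlap of *KRT8* with *KRT18* is on opposite strands, and reads were counted by strand.

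The members are related in sequence, which bears on how 75-base reads can be told apart. Over the whole coding sequence of the GENCODE release 44 canonical transcripts, *KRT7* and *KRT8* were the closest pair, with 76.2% identical bases, and the other pairs lay between 59.7% and 66.6%. The longest run of identical bases between any 2 transcripts was 65, between *KRT8* and *KRT80*, which is shorter than a read.

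Processed pseudogenes share longer stretches with *KRT8* and *KRT18*. Of the 1710 windows of 75 bases in the *KRT8* transcript, 22.0% had an identical copy elsewhere in the genome. For *KRT18* it was 7.02% of 1339 windows, and for *KRT7*, *KRT19* and *KRT80* it was 0. Under the counting defaults, reads that map to several places were not counted, so the counts of *KRT8* and *KRT18* leave out part of their transcripts. The annotation holds 51 numbered pseudogenes of *KRT8*, of which 28 had any read. Their reads came to between 2.51% and 3.16% of those of *KRT8* in a library. The 67 pseudogenes of *KRT18* drew between 0.344% and 0.757% of the reads of *KRT18*, and the 5 of *KRT19* had 0 reads. The pseudogene with the most reads was *KRT8P12* (chromosome 3, 160565447 to 160569248), which is 90.6% identical to the coding sequence of *KRT8* over 1388 aligned bases. It was at 7.15 ± 0.263 CPM (SD, n = 3) in the controls and 8.31 ± 0.0820 CPM (SD, n = 3) with DAPT, with a log2 fold change of 0.22 that missed the threshold (adjusted p = 0.17, edgeR with Benjamini-Hochberg adjustment).

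Total counts per library lay between 12276313 and 16317672. At this depth 3 reads, taken as the smallest signal, correspond to between 0.187 and 0.248 CPM, that is counts scaled to the TMM-normalized library total. The Notch target *HEY1* fell from 34.6 ± 1.77 CPM in the controls to 8.75 ± 0.796 CPM with DAPT (SD, n = 3 each). All 8 markers of squamous epithelium were tested and detected, but *KRT14*, which defines the basal layer together with *KRT5*, was at only 3.17 ± 0.319 CPM (SD, n = 3) in the controls. The first control library stood apart. The fibroblast gene *COL1A2* was at 215 CPM in control replicate 1 and between 0.195 and 2.02 CPM in the other 5 libraries, and *VIM* was at 239.7 CPM against 0.844 to 2.24. All 8 fibroblast markers were highest in that library, with a summed level of 579.9 CPM against 50.0 to 58.5 in the others, where *COL1A1* made up most of it. Immune markers summed to between 10.02 and 15.1 CPM in all libraries, mostly from *CD14*, with *CD3E* and *HBB* at 0. Endothelial markers summed to between 1.24 and 1.81 CPM in the controls and between 2.41 and 2.99 CPM with DAPT, with *CLDN5* at 0. The endothelial cadherin gene *CDH5* was at 0.328 ± 0.171 CPM in the controls and at 1.81 ± 0.485 CPM with DAPT (SD, n = 3 each). It had 5, 7 and 2 reads in the controls, near the floor, and 36, 19 and 22 with DAPT. The rise was called (adjusted p = 4.93e-05, edgeR with Benjamini-Hochberg adjustment). However, *CDH5* passed the low count filter only through the DAPT libraries, so it could be called only as a rise. The part of the fibroblast signal in the keratin values was not tested, and the tests of the members and the counts of the main gene lists are given with and without control replicate 1.

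**Figure D1:**
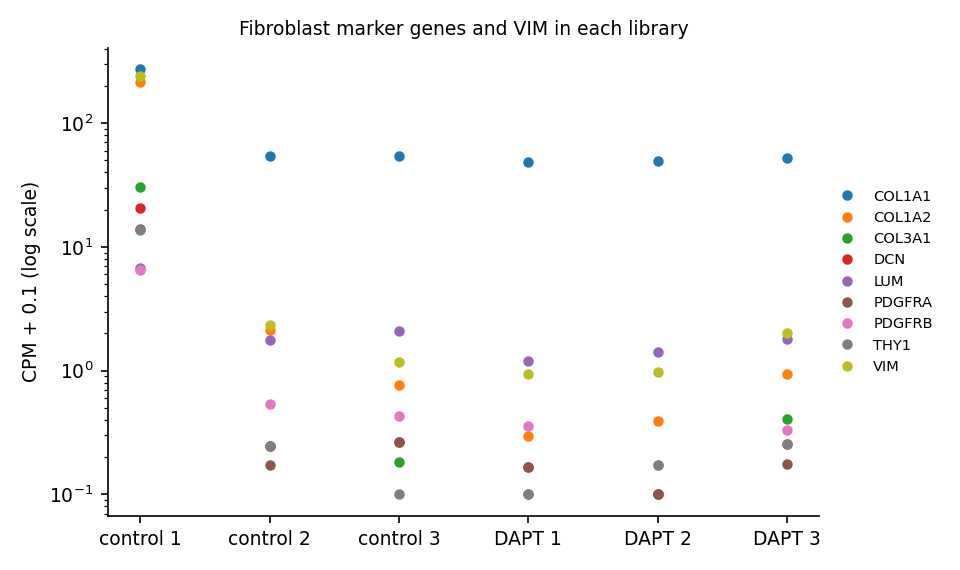
Level of 8 fibroblast marker genes and VIM (vertical axis, CPM + 0.1 on a log scale) in each of the 6 libraries (horizontal axis). Control replicate 1 lies above the others for every gene, with COL1A2 at 215 CPM against at most 2.02 CPM in the other libraries.

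Whether DAPT changed the simple keratins was asked first. The members did not move together. *KRT80* rose, *KRT18* and *KRT19* fell, and *KRT7* and *KRT8* did not pass the test. Thus 3 of 5 genes were called at the threshold of 0.05 on edgeR's p-values after Benjamini-Hochberg adjustment, as were 35.2% of all 15001 tested genes. By direction, 1 member rose (17.2% of all tested genes) and 2 fell (18.0%). The DAPT and control values did not overlap in the same 3 members, as in 46.3% of all tested genes. None of the 5 reached a 2-fold change, as 2.37% of tested genes did together with an adjusted p-value under 0.05. The median log2 fold change of the members was 0.08, and that of all tested genes was 0.01.

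**Figure D2:**
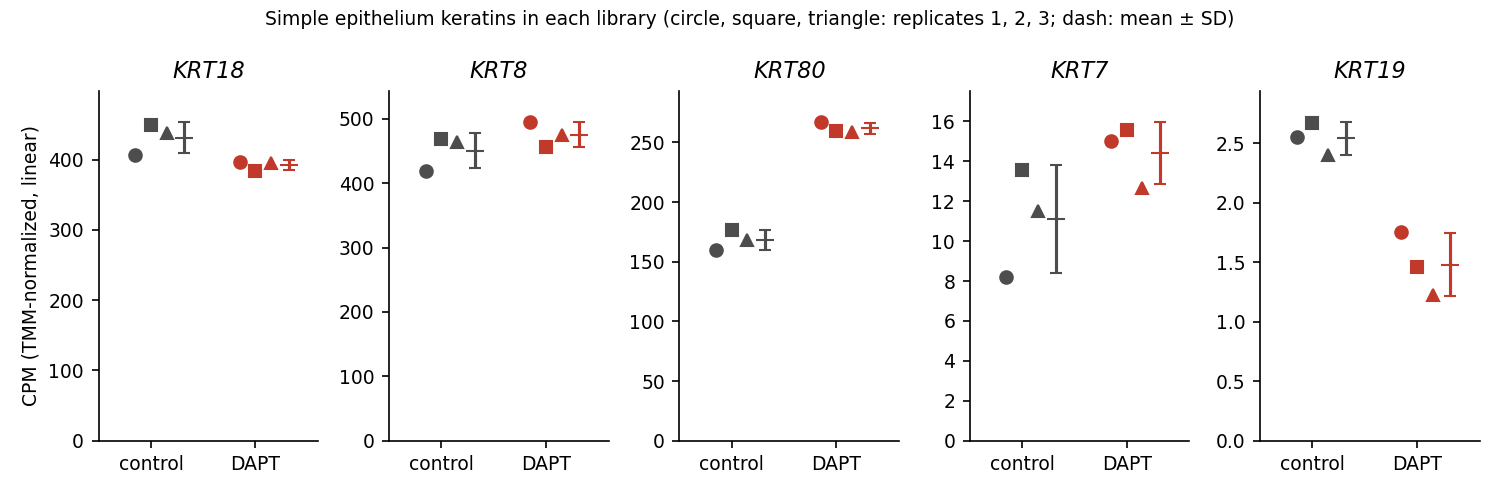
TMM-normalized level (vertical axes, CPM, linear and starting at 0) of the 5 keratin genes in the 3 control and 3 DAPT libraries. Points are libraries and dashes are the mean with its SD. The groups are apart for KRT80 (at most 177 CPM in controls, at least 258.6 with DAPT), KRT18 and KRT19, and they overlap for KRT8 and KRT7.

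*KRT80* showed the clearest change of the 5. It was at 159, 177 and 168 CPM in the controls and at 267, 259.6 and 258.6 CPM with DAPT. Every DAPT library lay above every control library, and the gap between the groups was several times the spread within them. The mean rose from 168 ± 8.65 to 262 ± 4.44 CPM (SD, n = 3 each). That is 1.56-fold, and the log2 fold change was 0.64 (SE 0.05). The adjusted p was 2.26e-09 (edgeR, Benjamini-Hochberg), and 98 of the 15001 tested genes had a smaller p. Without control replicate 1, the log2 fold change was 0.60 (adjusted p = 1.53e-10, edgeR, Benjamini-Hochberg). The call held in all 9 other settings and in all 6 fits that left out a library.

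*KRT18*, the type I keratin of the basic simple pair, fell slightly. It was at 407, 449 and 438 CPM in the controls and at 396, 384 and 396 CPM with DAPT. The DAPT libraries were the lower ones, but control replicate 1 lay close above them. The log2 fold change was -0.14 (95% interval -0.24 to -0.04), or 0.909-fold, with an adjusted p of 0.0328 (edgeR with Benjamini-Hochberg adjustment). This call was fragile. It was lost without control replicate 2 (log2 fold change -0.11), without control replicate 3 (-0.13), without DAPT replicate 2 (-0.12) and without DAPT replicate 3 (-0.14), with adjusted p from 0.0816 to 0.16 (edgeR, Benjamini-Hochberg). It was also lost when scaling by library size alone (-0.09, adjusted p = 0.144). Without control replicate 1, the fall was larger, at -0.18 (adjusted p = 0.00223, edgeR with Benjamini-Hochberg adjustment).

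*KRT8*, its type II partner, was at 419, 468 and 464 CPM in the controls and at 495, 456 and 475 CPM with DAPT. The groups overlapped, since DAPT replicate 2 was below 2 of the controls. The log2 fold change was 0.08 with a 95% interval from -0.03 to 0.19, and it did not pass the test (adjusted p = 0.258, edgeR with Benjamini-Hochberg adjustment). That interval leaves room for a rise of up to 1.14-fold. Without control replicate 1 the value was 0.03 (adjusted p = 0.645, edgeR, Benjamini-Hochberg). It was called in 0 of the 15 alternative fits.

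*KRT7*, the type II keratin of ducts and glands, was a low gene with 132 to 231 reads per library. It was at 8.22, 13.6 and 11.5 CPM in the controls and at 15.01, 15.6 and 12.7 CPM with DAPT. Control replicate 1 was the lowest library, and control replicate 2 lay above DAPT replicate 3. The log2 fold change of 0.39 (95% interval 0.08 to 0.71) had an adjusted p of 0.0523 (edgeR with Benjamini-Hochberg adjustment), just over the threshold. Small changes of the fit moved it across, and it was called in 7 of 9 other settings. It was also called without control replicate 2 (0.57, adjusted p = 0.00269) and without DAPT replicate 3 (0.47, adjusted p = 0.04, both edgeR with Benjamini-Hochberg adjustment). The value rested in large part on control replicate 1, since without it the log2 fold change was 0.20 (adjusted p = 0.188, edgeR, Benjamini-Hochberg).

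*KRT19*, the type I keratin without most of its tail, was the lowest of the 5, with 16 to 41 reads per library. It was at 2.55, 2.67 and 2.40 CPM in the controls and at 1.75, 1.46 and 1.23 CPM with DAPT. All 3 DAPT libraries lay below the controls. The log2 fold change was -0.77 (95% interval -1.25 to -0.28), or 0.588-fold (adjusted p = 0.0146, edgeR with Benjamini-Hochberg adjustment). Few reads stand behind this value, and the interval is the widest of the 5. The call was lost without DAPT replicate 3 (-0.65, adjusted p = 0.0645) and in DESeq2 (-0.78, adjusted p = 0.0722, Benjamini-Hochberg), and it held without control replicate 1 (-0.76, adjusted p = 0.028 in edgeR).

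**Figure D3:**
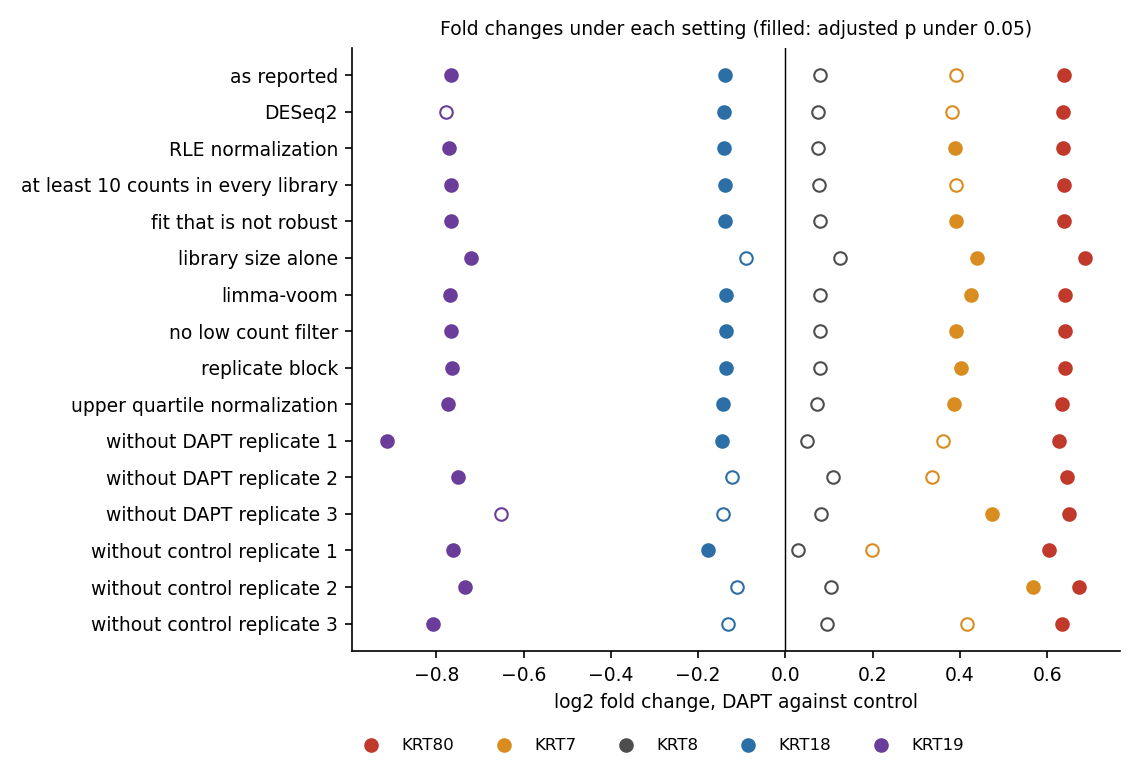
Log2 fold change (horizontal axis) of the 5 keratin genes under the reported fit, 9 other settings and 6 fits that each left out a library (rows). Filled points have an adjusted p-value under 0.05. KRT80 is filled in every row and KRT8 in none, while KRT7 moves from 0.20 without control replicate 1 to 0.57 without control replicate 2.

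To compare levels between genes, CPM were divided by the exon length of the count tables, which gives RPKM, the CPM per kilobase. In the controls the order was *KRT18* (141 ± 7.12 RPKM), *KRT8* (65.4 ± 3.96), *KRT80* (38.5 ± 1.98), *KRT7* (2.78 ± 0.676) and *KRT19* (1.09 ± 0.0579, SD, n = 3 each). With DAPT the order was the same, at 128 ± 2.28, 69.0 ± 2.81, 59.96 ± 1.02, 3.61 ± 0.384 and 0.634 ± 0.113 RPKM. The lowest control library of each gene was above the highest one of the next in the order, and the same held among the DAPT libraries. *KRT80* came close to *KRT8* with DAPT, with at most 61.1 RPKM against at least 66.2. The distances of *KRT8* from *KRT18* and from *KRT80* rest on the length used, since the count tables give *KRT8* 6881 exonic bases over all its transcripts and its canonical transcript has 1784. Per length of the canonical transcript, *KRT18* was at 305 ± 15.5 and *KRT8* at 252 ± 15.3 RPKM in the controls. With DAPT these were 277 ± 4.96 and 266 ± 10.9 RPKM (SD, n = 3 each), and the libraries of both genes then overlapped. *KRT80* was then at 67.6 ± 1.15 RPKM with DAPT, far below *KRT8*.

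The balance of the pairs was examined within each library, where scaling between libraries plays no part. The ratio of *KRT8* to *KRT18* reads was 1.03, 1.04 and 1.06 in the controls and 1.25, 1.19 and 1.20 with DAPT. All DAPT ratios were above all control ratios, with a gap larger than the spread in either group. On the log2 scale the ratio per kilobase rose from -1.10 ± 0.02 to -0.89 ± 0.04 (SD, n = 3 each), a difference of 0.22 or 1.16-fold. The exact two-sided permutation test over samples gave p = 0.1, also after Benjamini-Hochberg adjustment over both ratios, and 3 against 3 samples cannot give less. Leaving out any single library kept the difference between 0.19 and 0.23. For *KRT7* to *KRT19* the read ratios were 3.22, 5.08 and 4.79 in the controls and 8.56, 10.7 and 10.3 with DAPT. The log2 difference was 1.19, with the same exact permutation p of 0.1, and it was 0.99 without control replicate 1. In both pairs the type II gene thus stood higher against its type I gene in each DAPT library than in any control library. For single genes, the groups did not overlap in 46.3% of all tested genes, and no such share was worked out for ratios. The *KRT7* to *KRT19* ratio also rests on only 16 to 41 *KRT19* reads per library.

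**Figure D4:**
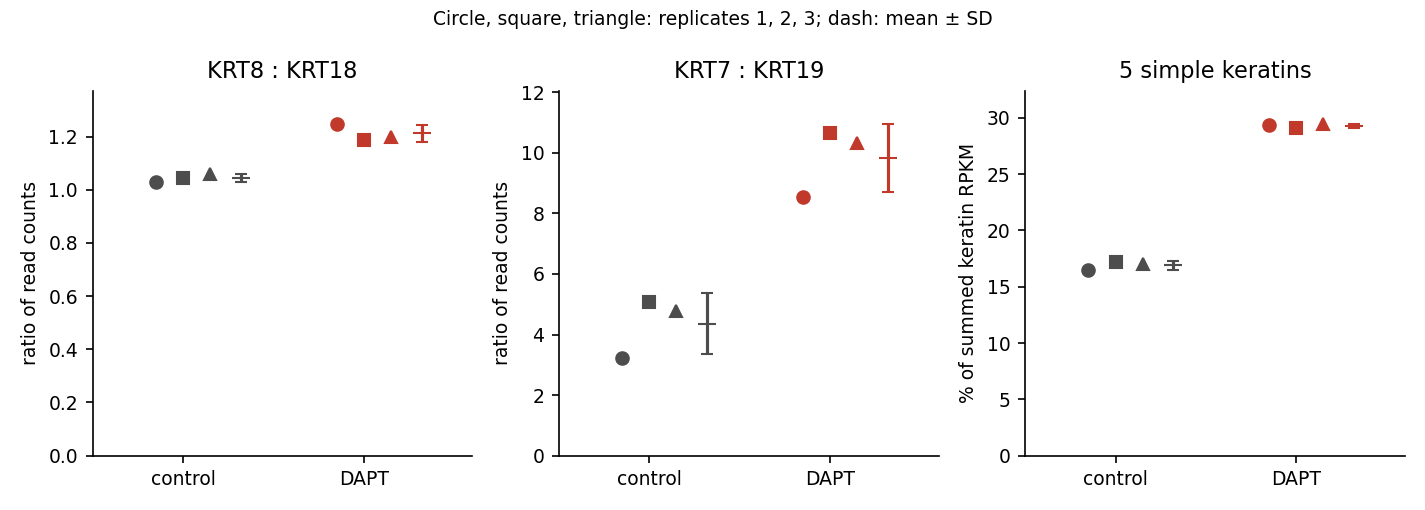
Ratio of KRT8 to KRT18 reads, ratio of KRT7 to KRT19 reads and share of the 5 simple keratins in the summed RPKM of all protein-coding keratin genes (vertical axes, starting at 0), by library. All DAPT libraries lie above all control libraries in each panel, and the share is 16.9% in controls and 29.3% with DAPT on average.

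Summed over the 5 genes, the level was 248 ± 13.6 RPKM in the controls and 261 ± 5.62 RPKM with DAPT (SD, n = 3 each). This difference is within the spread of the controls, and the groups overlapped. In CPM, with no division by length, the sum went from 1063 ± 59.8 to 1145 ± 28.9 (SD, n = 3 each), and all DAPT libraries lay above all controls. This rise was smaller than that of *KRT80* alone, which went from 168 to 262 CPM, so the other members together did not rise. The 3 type II members went from 107 ± 6.48 to 133 ± 3.70 RPKM and the 2 type I members from 142 ± 7.13 to 128 ± 2.30 RPKM. Most of the type II gain was that of *KRT80*, from 38.5 to 59.96 RPKM. *KRT80* took 15.5 ± 0.231% of the summed level in the controls and 23.0 ± 0.299% with DAPT. *KRT18* took 56.6 ± 0.242% and then 48.9 ± 0.508% (SD, n = 3 each). Per canonical length, *KRT80* took 7.12 ± 0.128% and then 10.9 ± 0.181%, so the size of its share rests on the length used while both lengths gave a larger share with DAPT.

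Among all 55 protein-coding keratin genes, the 5 simple keratins made up 16.9 ± 0.394% of the summed RPKM in the controls and 29.3 ± 0.188% with DAPT (SD, n = 3 each). The sum of the simple keratins moved little, and the change lay in the other keratins. The 19 listed keratins of stratified epithelia fell from 1218 ± 33.3 to 628 ± 10.1 RPKM. Of the 10 of them that were tested, 9 were lower with DAPT and 1 higher, with a median log2 fold change of -1.38. Among all tested genes 18.0% were lower and 17.2% higher. Without control replicate 1 the counts were 9 and 1 as well. *KRT5*, the main type II keratin of the basal layer, fell from 2701 ± 61.9 to 1315 ± 43.4 CPM (log2 fold change -1.04). *KRT6A*, a keratin of activated and suprabasal cells, had -1.48, *KRT13*, of the oral suprabasal layers, -1.85, *KRT17* -0.88 and *KRT15* -0.45. *KRT16* also fell, with -2.27, as did the low *KRT14*, *KRT6B* and *KRT76*, with -2.79, -1.94 and -1.28. With DAPT, *KRT14* had 11, 0 and 8 reads and *KRT6B* had 7, 5 and 6, so their fold changes rest on few reads. Both passed the low count filter only through the controls, where they were higher. They could thus enter the count and the median only as falls. The exception was *KRT10*, a keratin of cornifying layers, which rose from 49.6 ± 0.798 to 61.6 ± 5.07 CPM (log2 fold change 0.31, adjusted p = 9.38e-04 from edgeR with Benjamini-Hochberg adjustment). Reads shared by the near-identical *KRT6A* and *KRT6B* were not counted, and their values are uncertain for that reason. The remaining keratins grouped with simple epithelia, *KRT20*, *KRT23* and *KRT222*, summed to between 0.580 and 1.08 CPM in all libraries.

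**Figure D5:**
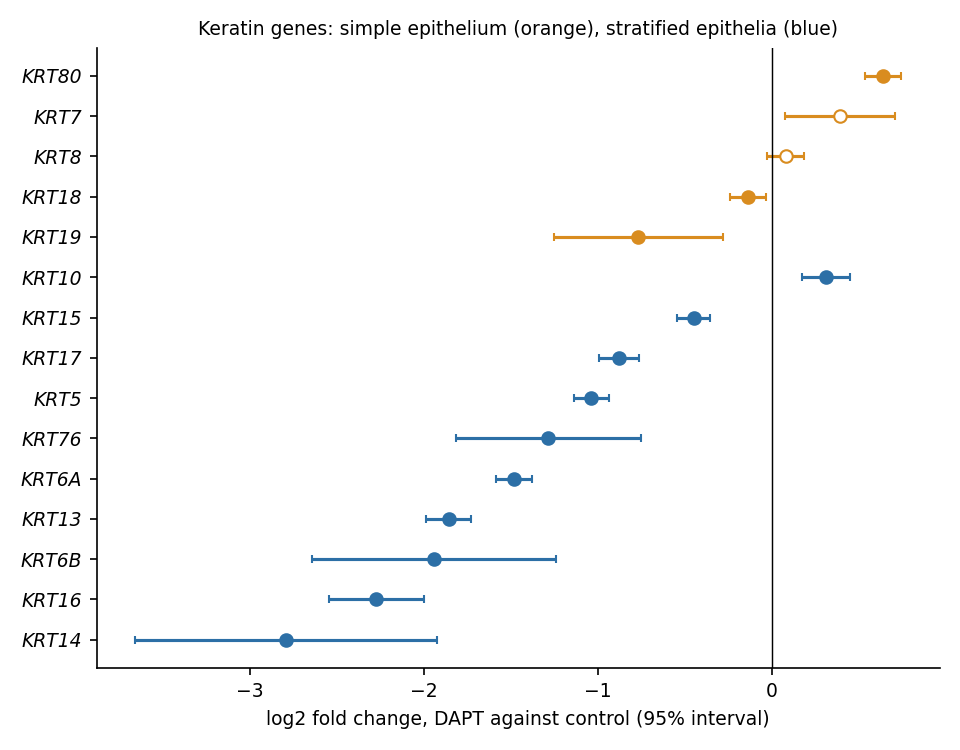
Log2 fold change, DAPT against control (horizontal axis), with its 95% interval for the 5 simple keratins (orange) and the 10 keratins of stratified epithelia with a mean of at least 1 CPM (blue). Filled points have an adjusted p-value under 0.05. The simple keratins lie between -0.77 and 0.64 and the stratified ones between -2.79 and 0.31.

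These are bulk samples, in which fewer cells of a type and less RNA per cell cannot be told apart. Other genes of simple or glandular epithelia were compared next. Their list was written from general knowledge but with earlier results of these data known, so the counts describe only the listed genes. Of its 14 genes 10 were tested, and 6 rose with DAPT while 0 fell, with a median log2 fold change of 0.21. Among all tested genes 17.2% rose. The count of rises was 7 with the replicate number as a block and 8 when scaling by library size alone. The largest rises were those of *AGR2*, a protein disulfide isomerase of secretory cells (0.57), *ESRP2*, an epithelial splicing factor (0.30), and *MUC1*, a membrane mucin (0.29). The counts were 6 and 1 without control replicate 1. *TFF3* was at 0, and *CLDN3*, *PROM1* and *CEACAM6* were under 1 CPM on average. Of the 8 squamous markers, 7 fell and 0 rose, also without control replicate 1, with a median of -0.44. Among all tested genes 18.0% fell. The count of falls was 6 when scaling by library size alone. *KRT5* and *KRT14* are also among the stratified keratins above, and *TP63* and *SFN* among the lists below. These counts are thus not separate. As said above, *KRT14* passed the filter only through the controls, so it could count only as a fall. *TP63*, the transcription factor of squamous identity, fell by 0.58 on the log2 scale.

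Genes listed as partners of keratin filaments formed a mixed group. Of 21 genes, all tested, 2 rose and 7 fell, and 12 did not pass the test. Calls among all tested genes were 35.2%, so the 9 of 21 here are close to the background in either direction together. By direction, 17.2% of all tested genes rose and 18.0% fell, while falls outnumbered rises in this list. The counts were 2 and 8 without control replicate 1. *PPL* (periplakin) and *PLEC* (plectin), which are linkers of the plakin family, rose by 0.72 and 0.40 on the log2 scale. *SFN*, a 14-3-3 protein, fell from 375 ± 28.3 to 255 ± 18.3 CPM (SD, n = 3 each), and its log2 fold change was -0.55. *EPPK1* (epiplakin, another plakin) had -0.41 and *HSPB1*, a small heat shock protein, -0.37. The call of *EPPK1* was lost in DESeq2 (-0.41) and without control replicate 3 (-0.37), DAPT replicate 1 (-0.31) or DAPT replicate 2 (-0.39), and that of *HSPB1* without DAPT replicate 1 (-0.40). The median over the list was -0.09. *VIM*, also on the list though read above beside the fibroblast genes, had a fitted log2 fold change of -6.11. It was not called, with its high value in control replicate 1 alone.

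Of 19 transcription factors known for simple keratin genes or epithelial programmes, 17 were tested, 3 rose and 4 fell. The rises were those of *KLF4* (0.81), *ELF3*, an ETS factor of epithelial cells (0.62), and *JUND*, an AP-1 subunit (0.39). *ETS1* (-0.74), *TP63* (-0.58) and the AP-1 subunit *FOSL1* (-0.48) had the largest falls. Without control replicate 1, 3 rose and 5 fell. When scaling by library size alone, 6 rose and 4 fell. Calls among all tested genes were 35.2%, so the 7 of 17 here are close to the background.

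Genes next to the members on the chromosome were also compared. Distances were taken between annotated gene starts, as defined above. Within 250 kb of a member's annotated start, 24 other tested genes had a mean of at least 1 CPM. Of these, 4 rose and 10 fell, with a median log2 fold change of -0.07. Of all tested genes 17.2% rose and 18.0% fell, and 7 of the 10 falls here were stratified keratins counted above. Among these, *KRT14* and *KRT6B* passed the filter only through the controls. Around *KRT80* and *KRT7*, the autophagy gene *ATG101* rose by 0.27 and the nuclear receptor gene *NR4A1* fell by 0.72 on the log2 scale. The groups overlapped for *NR4A1*, and its call was lost in DESeq2 (-0.73) and without control replicate 2 (-0.63), control replicate 3 (-0.59), DAPT replicate 1 (-0.68) or DAPT replicate 2 (-0.54). The hair keratins *KRT81* (0.08) and *KRT86* (0.18), the lncRNA gene ENSG00000257829 (0.15) and the receptor gene *ACVR1B* (0.03) did not pass the test. Beyond *KRT18*, the translation factor gene *EIF4B* had nearly its value (-0.14, adjusted p = 0.0255 from edgeR with Benjamini-Hochberg adjustment), while *CSAD* (0.36) and *ZNF740* (0.20) rose. These calls were fragile as well. *EIF4B* lost its call with library size alone (-0.09), with no low count filter (-0.13) and without control replicate 2 (-0.15), control replicate 3 (-0.13), DAPT replicate 2 (-0.12) or DAPT replicate 3 (-0.13). *CSAD* lost it in DESeq2 (0.36) and without control replicate 2 (0.32), control replicate 3 (0.29) or DAPT replicate 1 (0.33). *ZNF740* lost it in DESeq2 (0.19) and without control replicate 2 (0.15), control replicate 3 (0.20), DAPT replicate 2 (0.20) or DAPT replicate 3 (0.18). *TNS2* (0.05), *TNS2-AS1* (0.11), *SPRYD3* (0.04), *IGFBP6* (-0.03) and *EIF4A1P4* (-0.11) did not pass. *KRT19* sits among stratified keratins, with *KRT15* and *KRT13* the nearest. Of its 8 neighbours, 6 fell and 1 rose, with a median of -0.73. The riser was *EIF1*, a translation initiation factor (0.49), *HAP1* fell by 0.58, and *KRT32* (-0.56) did not pass the test.

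Profiles most like each member were sought among 10140 genes with a mean of at least 10 CPM. Likeness was the root mean square difference of log2 CPM over the 6 libraries after centring on the control mean. For *KRT80* they were *HOXC13-AS* (0.04), *ATOH8* (0.05) and *BLTP3A* (0.05). For *KRT8* they were *COPS7A*, *SYNM* and *DIDO1* (0.02 each), and for *KRT18* they were *RNF34*, *PLEKHH1* and *POLRMT* (0.02 each). For *KRT7* they were *LHX1* (0.06), *TESK1* (0.08) and *IRX2-DT* (0.09). For *KRT19* they were *MLLT11* (0.04), *GNG4* (0.06) and *ALDH3B2* (0.06). With 6 libraries in 2 groups this likeness mostly restates the size of the fold change.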

How the data were processed

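RNA of 6 HSC-4 cultures was sequenced as 75-base single-end reads from a directional mRNA library. After trimming (Trim Galore) and alignment to GRCh38 (HISAT2), the authors deposited read counts per Ensembl gene, made with featureCounts 1.6.3 over exons on the gene's own strand, without normalization. The submitters' processing notes also name HTSeq and DESeq2, while the file headers name featureCounts and the paper edgeR. Groups and replicate numbers come from the sample titles. Symbols were matched by identifier to GENCODE release 44 (58472 of 58884 genes), and coordinates of genes are those of the count tables.

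Counts were filtered by group (minimum count 10), normalized with TMM and tested with edgeR 4.0.16 in R 4.3.3 (robust quasi-likelihood F test, Benjamini-Hochberg adjustment over 15001 genes, threshold 0.05). The F statistic gave the SE and 95% interval of each log2 fold change. Ratios within libraries were compared by exact permutation. Intervals and the floor of 3 reads cover counting error and the spread between these samples only. Alternatives were RLE, upper quartile and library size scaling, no filter, at least 10 counts in every library, DESeq2 1.42.0, limma-voom (limma 3.58.1), a fit that is not robust, the replicate number as a block, and each library left out. The length of canonical transcripts and list counts without control replicate 1 were added after seeing the data. The edgeR procedure was also run on simulated counts, and the outcome is not given here. Only well-expressed genes were changed there, each 2-fold, so small changes and genes with few reads were not covered. Transcripts were searched in the genome with blastn. Correlations of same-numbered libraries' deviations from their group means lay between -0.02 and 0.03, so the numbers were not taken as pairs.

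The members and gene lists were chosen with earlier results of these data known. Named genes are the members, in each list the 3 largest rises and falls among called genes of at least 1 CPM (all such genes in the keratin lists), neighbours within 250 kb, the 3 nearest profiles per member among genes of at least 10 CPM, the pseudogenes with most reads and *HEY1*. Other genes named as absent or as markers were chosen after their values were seen. A stretch of coding sequence and a marker gene are not reported here.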

Additional observations from a re-analysis of the deposited data

How the results depend on the processing

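The rise of *KRT80* kept its call under all 9 other settings and without any single library (log2 fold change 0.60 to 0.67), and *KRT8* was never called. *KRT7* was just short of the threshold and passed it with RLE (0.39), upper quartile (0.39) and library size scaling (0.44), without a low count filter (0.39), in limma-voom (0.43), in the fit that was not robust (0.39) and with the replicate block (0.40). Leaving out single libraries moved *KRT7* between 0.20 and 0.57, *KRT18* between -0.18 and -0.11 and *KRT19* between -0.91 and -0.65. *KRT18* lost its call with library size alone (-0.091) and *KRT19* in DESeq2 (-0.78). The causes were not tested. Replicate numbers did not pair the samples, and the replicate block left 5295 genes called against 5281 and changed no call of the other 4 members. Library size alone moved the median log2 fold change of all genes from 0.01 to 0.06 and the share of higher calls from 48.7% to 61.5%.

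Some values not past the threshold changed sign. With library size alone *IGFBP6* was at 0.019. Leaving out single libraries, *ACVR1B* ranged from -0.0090 to 0.077, *EIF4A1P4* from -0.19 to 0.014, *IGFBP6* from -0.13 to 0.034, *KRT18P59*, the pseudogene of *KRT18* with the most reads, from -0.63 to 0.35, *KRT81* from -0.090 to 0.30, *KRT86* from -0.021 to 0.41, *SPRYD3* from -0.025 to 0.11 and *TNS2* from -0.029 to 0.11. Depth limits *KRT19* most, with 16 to 41 reads per library, and 3 samples a group limit every exact permutation p to 0.1 or more.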
